A study of Mus musculus with 38 samples.

Results

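The question here is whether the effect of losing hexokinase 2 in the gut epithelium differs between mice in colitis and mice at rest. It was put to RNA-seq counts as a genotype by day interaction, the KO minus WT difference on day 7 of colitis minus the same difference on day 0, on the log2 scale and across all genes. A positive value means that a gene stood higher in KO relative to WT on day 7 than on day 0, and a negative value the reverse. The libraries were chosen by their titles, all those of day 0 and day 7, which gave 23 of the 38 libraries of the series. The other 15, of day 3, do not enter the test and are set beside it. Day 0 had 4 WT and 5 KO libraries, and day 7 had 7 WT and 7 KO libraries.

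The KO mice (Hk2∆IEC) carried a floxed Hk2 gene and Cre recombinase under the Villin promoter, which is active in intestinal epithelial cells. The WT mice were littermates that carried the floxed gene, Hk2fl/fl, so the floxed allele was shared by all 4 groups and only Cre set them apart. All were on the C57BL/6 background. Colitis was induced with 1.5% (w/v) dextran sodium sulfate (DSS) in the drinking water of co-housed male mice 10 to 12 weeks old, and day 7 libraries come from that course. Mice at rest were of 2 age ranges per the labels' protocols, 86 to 92 weeks old or from 9 to 11, and which of them gave the day 0 libraries is not given in the sources used here. The libraries are labelled as isolated intestinal epithelial cells, while the series' design text speaks of colon tissue. Per the labels' protocols, libraries were prepared with a stranded poly(A) mRNA kit. The shares of mitochondrial ribosomal RNA and of histone genes, given below, differed between day 0 and day 7 libraries. Whether both were prepared alike was not tested.

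Hexokinases phosphorylate glucose and so commit it to glycolysis, and hexokinase 2 is the inducible form that also binds the outer membrane of mitochondria. There it sits close to the voltage-dependent anion channels and to the permeability transition, whose regulator cyclophilin D is encoded by Ppif. DSS injures the colonic epithelium, and the injury brings in immune cells, interferon and other cytokines, to which epithelial cells answer with antimicrobial, antigen-presenting and metal-binding proteins. The epithelium also runs its own circadian clock, a loop in which CLOCK and BMAL1 drive transcription of the Period and Cryptochrome genes, whose proteins then repress it.

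Library totals were 10.5 to 17.5 M counts in day 0 KO, 12.7 to 44.9 M in day 0 WT, 25.2 to 54.1 M in day 7 WT and 37.6 to 60.6 M in day 7 KO, so a count of 3 stands for 0.0449 (d7_KO_366) to 0.342 (d0_KO_32) counts scaled to library size with TMM factors (CPM). Per the file headers the day 0 libraries carry another library name series than all others, and mitochondrial ribosomal RNA made up 6.25% to 45.6% of their counts against 0.436% to 1.96% on day 7. Day 0 and that series cannot be told apart in any change over time, and the interaction is free of the difference only where it acts alike on both genotypes. The highest share, 45.6%, was in the library d0_KO_32. By Xist, 2 day 0 libraries were female, d0_KO_32 and d0_WT_31, and the other 7 day 0 libraries and all day 7 libraries were male. The 11 pan-epithelial markers summed to 9480 to 13790 CPM on day 0 and to 13470 to 18000 CPM on day 7, with no marker at 0. Markers of neutrophils summed to 2.61 to 35.8 CPM on day 0 and to 185 to 2438 CPM on day 7. The labels do not state that each library came from a separate mouse, and p-values measure the spread between these libraries, which may be technical in part.

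Hk2 itself (chromosome 6, 82725025 to 82774454, minus strand, GRCm38) checks the labels. On day 0 it stood at 250, 286, 387.3 and 445 CPM in WT, and at 32.1, 58.8, 76.3, 86.6 and 113 CPM in KO. On day 7 the WT libraries had a lowest value of 223, a median of 298 and a highest of 589 CPM. The day 7 KO libraries had 55.7, 125 and 260 CPM as lowest, median and highest value. The groups did not overlap on day 0, while on day 7 the highest KO value, in the library labelled d7_KO_420, lay within the WT range and the next, 193 CPM, lay below it. The KO minus WT difference was -2.22 (SE 0.37, adjusted p = 0.0189) on day 0 and -1.25 (SE 0.29, adjusted p = 0.103) on day 7. The interaction of Hk2, 0.98 (SE 0.46), had an unadjusted p of 0.0444 and an adjusted p of 0.357, and without the library labelled d7_KO_420 it was 0.70.

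Of 18830 genes tested, 1 passed the interaction test at an adjusted p under 0.05 (0.00531%), the clock repressor Per2, and it was positive. No gene was called with a negative interaction by edgeR's quasi-likelihood test. At an unadjusted p under 0.05 there were 2544 genes (13.5%), 1422 of them positive (7.55%) and 1122 negative (5.96%). DESeq2's Wald test called 179 of the 14279 genes it gave an adjusted p (1.25%), 96 positive (0.672%) and 83 negative (0.581%). limma's voom with sample quality weights, which counts libraries far from their group less, called 1666 (8.85%), 974 positive (5.17%) and 692 negative (3.67%). Within single days the genotypes differed at few genes. On day 0 the test called 9 genes (0.0478%), 8 of them higher in KO (0.0425%). These were Gulp1, Hoxb7, Amn, Kcnh3, Car8, Gm25732, Mt4 and Lars2, and Hk2 was the 1 lower gene. On day 7 it called 2 (0.0106%), the pseudogene Tdpx-ps1 higher in KO and the immunoglobulin gene Ighg2b lower. In contrast, 11558 genes (61.4%) differed between day 7 and day 0 in WT and 10752 (57.1%) in KO. Colitis and library series cannot be told apart in those counts.

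**Figure D1:**
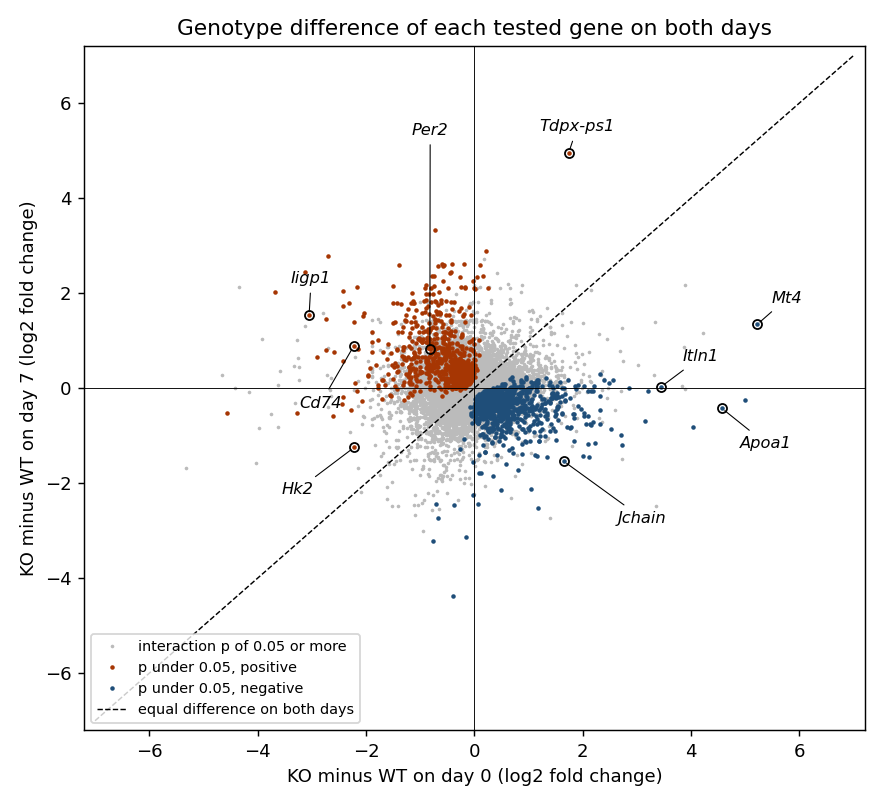
KO minus WT difference on day 0 (x axis, log2) against that on day 7 (y axis, log2) for the 18830 genes tested, each point 1 gene, coloured where the interaction had an unadjusted p under 0.05. The dashed line marks equal differences on both days, and the 1422 positive and 1122 negative genes lie on either side of it, most of them with opposite signs on the 2 days.

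Among the 1422 positive genes 96.8% had opposite signs of the genotype difference on the 2 days, and among the 1122 negative genes 93.1%, against 58.7% of all genes tested. An interaction that is the difference of 2 values favours opposite signs by construction. The positive genes were longer. Their median summed exon length was 5641 bases, against 2368 bases for the negative genes and 3130 bases for all genes tested. Without d0_KO_32, the library with the most mitochondrial ribosomal RNA, the medians were 5088 and 2635 bases. Whether RNA quality has a part in this order was not tested.

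Per2 (chromosome 1, 91415982 to 91459324, minus strand) was lower in KO at rest and higher in KO in colitis. On day 0 it stood at 22.1, 23.0, 26.9 and 28 CPM in WT, and at 13.2, 13.9, 14.2, 14.2 and 15 CPM in KO. On day 7 the WT libraries had a lowest value of 11.1, a median of 17.1 and a highest of 25.4 CPM. The KO libraries had 26.8, 29.7 and 45.5 CPM as lowest, median and highest value. All 5 KO libraries were thus below all 4 WT libraries on day 0, and all 7 KO libraries above all 7 WT libraries on day 7. The interaction was 1.64 (SE 0.24, unadjusted p = 4.64e-07, adjusted p = 0.00873). Neither of its parts passed alone: the KO minus WT difference was -0.82 (SE 0.19, adjusted p = 0.268) on day 0 and 0.81 (SE 0.15, adjusted p = 0.0516) on day 7. From day 0 to day 7, Per2 fell by 0.47 in WT (adjusted p = 0.0202) and rose by 1.17 in KO (adjusted p = 3.88e-06).

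The size of the Per2 interaction moved little, from 1.5 to 1.71, as each library was left out in turn, but the call did not always hold. The adjusted p was 0.0602 without d0_WT_41 and 0.0533 without d0_KO_32, 0.108 with all 38 libraries in one fit, and 0.115 with a small intestine marker score as a covariate, in a range of 3.49e-06 to 0.115 over all alternatives. On day 3, in a fit of its own, the KO minus WT difference of Per2 was 0.48 and was not called. That fit includes the library labelled d3_KO_345, whose Hk2 goes against its label. The hour of the day at which tissue was taken is not given in the sources used here.

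Only 3 of the 18830 genes (0.0159%) had KO libraries entirely below WT on day 0 and entirely above on day 7, and 0 had the reverse order. On single days, 372 genes (1.98%) had all KO libraries below WT on day 0 and 254 (1.35%) had all above. On day 7, 31 genes (0.165%) had all KO libraries above WT and 23 (0.122%) all below. The 3 genes were Per2, Msl1 and Slc35e2. Msl1, a scaffold of a histone acetyltransferase complex, stood at 53.05 to 58.4 CPM in day 0 WT and 40.5 to 49.5 CPM in day 0 KO. On day 7 its WT range was 70.8 to 82.3 CPM and its KO range 82.6 to 93.7 CPM. Its interaction was 0.47 (SE 0.09) with an adjusted p of 0.119. Slc35e2, a solute carrier related to nucleotide-sugar transporters, stood at 30.9 to 35.7 CPM in day 0 WT and 29.1 to 30.6 CPM in day 0 KO. On day 7 its WT range was 13.7 to 16.1 CPM and its KO range 17.3 to 19.6 CPM. Its interaction was 0.47 (SE 0.10) with an adjusted p of 0.125. Both genes were separated by narrow gaps, and neither interaction passed the test.

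**Figure D2:**
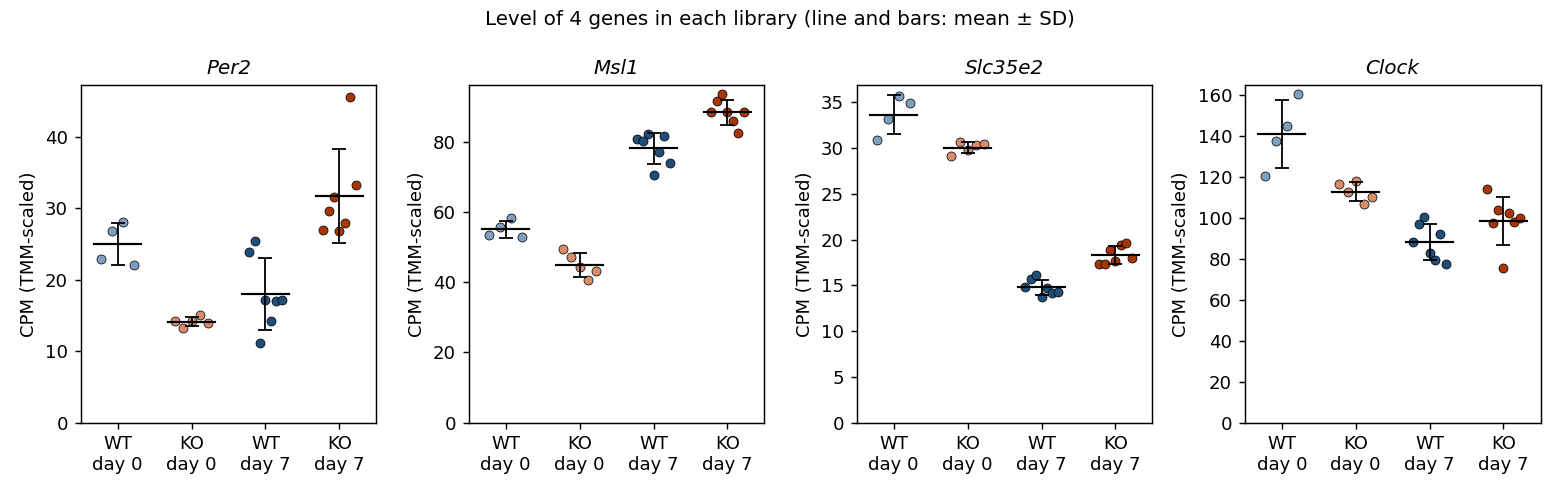
CPM of Per2, Msl1, Slc35e2 and Clock in each library of the 4 groups, with the mean and SD of each group (4, 5, 7 and 7 libraries). The KO libraries of Per2, Msl1 and Slc35e2 lie below WT on day 0 and above on day 7, with no overlap, while those of Clock lie below WT on day 0 and overlap with WT on day 7.

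The wider clock list held 19 genes, of which 17 were tested. Per2 was its only call, and Clock, which encodes the activator of the loop, was the only other member with an unadjusted p under 0.05, which makes 2 of 17 against 13.5% of all genes tested. Clock stood at 120, 137, 145 and 160 CPM in day 0 WT and at 107, 110, 112, 117 and 118 CPM in day 0 KO. On day 7 it had a lowest value of 77.2, a median of 88.2 and a highest of 100 CPM in WT, and 75.3, 99.8 and 114 CPM in KO. The groups were apart on day 0 and overlapped on day 7, where the lowest KO value was that of the library labelled d7_KO_420. The interaction of Clock was 0.48 (SE 0.13) with an adjusted p of 0.175, and 0.50 without that library. Some other members of the list had their highest day 7 KO value in that library. Arntl, the gene of BMAL1, was at 68.6 CPM in the library labelled d7_KO_420 against a KO median of 37.6 CPM, and its interaction of 0.31 was 0.10 without it. For Bhlhe40, a repressor of the loop, that library had 484 CPM against a median of 258 CPM, and the interaction of 0.39 was 0.16 without it. Over the 17 genes the median interaction was 0.23, against 0.03 over all genes tested, and it was -0.15 without that library.

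The genes next to Per2 by p were given by a rule, 12 of each sign with the smallest p among well expressed protein-coding genes. Their interactions are ordered by the same values that chose them. Other than Per2 none passed, and their adjusted p lay between 0.0981 and 0.146. All 24 had an adjusted p under 0.05 by DESeq2, and all 24 did so in edgeR's test without the library labelled d7_KO_420, both on libraries that also chose them. The 12 positive ones ran from 0.46 to 1.64 and had opposite signs on the 2 days in every case. Of them, 8 had all KO libraries below all WT libraries on day 0, where 1.98% of all genes did, and 4 had all above on day 7, where 0.165% did. The same libraries chose these genes.

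Among the positive genes Skil, which encodes the SMAD corepressor SnoN, had the next smallest p after Per2. It stood at 131, 141, 148 and 164 CPM in day 0 WT and at 86.4, 92.3, 104, 106 and 112 CPM in day 0 KO, with no overlap. By day 7 it had 63.1, 86.5 and 99.7 CPM as lowest, median and highest value in WT, and 85.5, 113 and 124 CPM in KO, with overlap. Its interaction was 0.92 (SE 0.16) with an adjusted p of 0.0981. Parp3, an ADP-ribosyltransferase of DNA break repair, stood at 12.1 to 18.4 CPM in day 0 WT and 6.34 to 10.8 CPM in day 0 KO, and its interaction was 1.21 (SE 0.23). In day 7 libraries its ranges were 15.9 to 23.4 CPM in WT and 18.3 to 35.4 CPM in KO. L3mbtl3, a reader of methylated lysines, had an interaction of 0.97 (SE 0.19) and its larger difference on day 7, 0.60. Ncoa3, a nuclear receptor coactivator, had 0.70 (SE 0.15), and Mapk14, the gene of the stress kinase p38 alpha, 0.50 (SE 0.11). Mapk14 stood at 61.6 to 72.0 CPM in day 0 WT and 54.6 to 60.3 CPM in day 0 KO, below WT in every library. On day 3 the KO minus WT difference was above 0 for all 12 genes, with 0.08 for Msl1 and 0.26 for Skil as examples. None of the 12 was called on day 3, and the day 3 median over all genes was -0.00441. The share of all genes above 0 on day 3 is not given here.

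Among the 12 negative genes 8 had all KO libraries above all WT libraries on day 0 (1.35% of all genes tested), and 0 had all below on day 7 (0.122%). These, too, were chosen on the same libraries. Kcnh3, a voltage-gated potassium channel gene, stood at 15.8, 20.4, 21.7 and 22.7 CPM in day 0 WT and at 26.7, 39.7, 40.3, 41.8 and 46.8 CPM in day 0 KO. On day 7 its medians were 21.1 CPM in WT and 19.8 CPM in KO. It was higher in KO on day 0 (0.95, SE 0.18, adjusted p = 0.038), and its interaction was -1.09 (SE 0.22, adjusted p = 0.128). Car8, which encodes a carbonic anhydrase-related protein, stood at 18.3, 35.0, 35.8 and 38.2 CPM in day 0 WT and at 46.9, 63.8, 72.9, 76.2 and 87.8 CPM in day 0 KO. On day 7 its groups overlapped, with 68.7 to 99.1 CPM in WT and 70.1 to 105 CPM in KO. The day 0 difference was 1.12 (SE 0.19, adjusted p = 0.0189), and the interaction was -1.13 (SE 0.24, adjusted p = 0.128).

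Hoxb7, a homeobox gene of position along the body axis, behaved alike on another scale. It stood at 2.26, 2.91, 3.08 and 3.88 CPM in day 0 WT and at 5.13, 6.25, 6.31, 6.41 and 7.38 CPM in day 0 KO. On day 7 it was at 11.5 to 17.7 CPM in WT and 14.7 to 18.4 CPM in KO. It was higher in KO on day 0 by 1.04 (SE 0.16, adjusted p = 0.00832), rose from day 0 to day 7 in both genotypes, and had an interaction of -0.91 (SE 0.19, adjusted p = 0.128). Amn, which encodes a part of the receptor for vitamin B12 uptake, was at 2.26 to 3.01 CPM in day 0 WT and 4.32 to 9.85 CPM in day 0 KO. Its interaction was -1.30 (SE 0.28, adjusted p = 0.144), and its day 7 difference was 0.06. Lars2, the mitochondrial leucyl-tRNA synthetase, had the largest of these 12 interactions, -1.80 (SE 0.41). Its day 0 levels ran from 1205 to 3467 CPM in WT and from 2227 to 11530 CPM in KO, the highest in d0_KO_32, and all day 7 libraries lay between 76.3 and 117 CPM. All day 0 libraries were thus above all day 7 libraries in Lars2, as they were in mitochondrial ribosomal RNA. In day 0 KO, libraries with shares of 6.25%, 9.68%, 12.3%, 12.4% and 45.6% had 5719, 2227, 10500, 6752 and 11530 CPM of Lars2. In day 0 WT, those with 7.075%, 8.93%, 11.5% and 13.8% had 1835, 3467, 1205 and 1659 CPM. The part of that RNA in the counts of Lars2 was not tested.

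The low number of calls moved with single libraries. Leaving out each of the 23 libraries in turn gave 0 to 279 interaction calls. There were 0 without d0_WT_41 (1807 genes, or 9.4%, at an unadjusted p under 0.05) and 0 without d0_KO_32 (2183 genes, or 11.6%). There were 6 (0.031%) without both female day 0 libraries, 3 without d0_WT_31 and 2 each without d0_KO_24, d7_KO_366 and d7_KO_422. Without the library labelled d7_KO_420 there were 279 of 18659 genes (1.5%), 125 of them positive and 154 negative. All 279 had the same sign in the test on 23 libraries, and 258 had an unadjusted p under 0.05 there. Of the 279, 108 (38.7%) were also called by DESeq2 on all 23 libraries, which is 60.3% of DESeq2's calls. The day 7 difference moved in the same way, from 2 calls to 907 without the library labelled d7_KO_420, 122 without d7_WT_370 and 45 without d7_WT_419. It had 0 calls without d7_KO_367, d7_KO_368, d7_KO_422 or d7_KO_423.

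**Figure D3:**
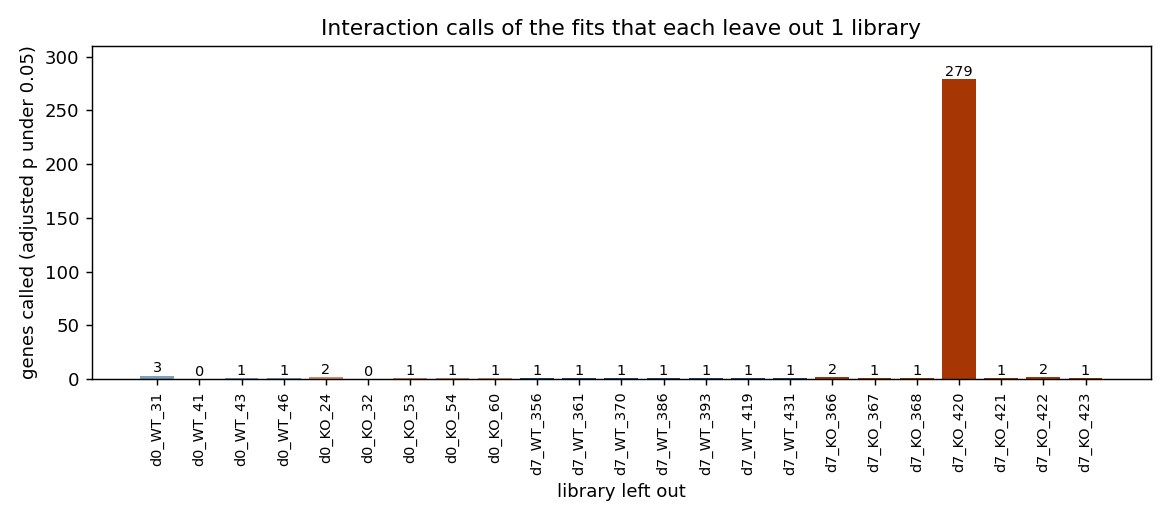
Number of genes called for the interaction (bars, from 0) by edgeR when the library named at each position is left out of the 23. The bar for the library labelled d7_KO_420 stands at 279, and all others at 0 to 3.

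The library labelled d7_KO_420 stood apart in the levels of many genes. Its Hk2, 260 CPM, was the highest of its group and within the day 7 WT range, which goes against its label, while its Tdpx-ps1, 1.58 CPM, lay within the range of the other KO libraries and above all WT libraries. It also had the highest neutrophil marker sum of all 23 libraries, 2438 CPM, against a day 7 KO median of 339 CPM. Its small intestine marker sum, 838 CPM, was also the highest of day 7 KO. Cirbp, the cold-inducible RNA-binding protein gene, was named after its values were seen. It was at 141 CPM in that library and at 14.04 to 25.95 CPM in the other 6 day 7 KO libraries, with 23.0 to 123 CPM in day 7 WT. On day 0 it was at 18.4 to 31.2 CPM in WT and 34.0 to 48.1 CPM in KO. Its interaction was -1.50 with that library and -2.41 without it.

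Metallothioneins bind zinc and copper, and their genes are driven by the metal-sensing factor MTF1 through short metal response elements in their promoters. MTF1's gene Mtf1 and 2 of its classical targets, Mt1 and Mt2, took opposite places in the interaction. The 250 bases before the RefSeq start of each target (GRCm38.p6, plus strand) are shown because the levels of these genes were apart between genotypes at rest, with matches to the metal response element core in capitals. Mt1 lies at chr8:94178839-94179088 and Mt2 at chr8:94172368-94172617.
Mt1: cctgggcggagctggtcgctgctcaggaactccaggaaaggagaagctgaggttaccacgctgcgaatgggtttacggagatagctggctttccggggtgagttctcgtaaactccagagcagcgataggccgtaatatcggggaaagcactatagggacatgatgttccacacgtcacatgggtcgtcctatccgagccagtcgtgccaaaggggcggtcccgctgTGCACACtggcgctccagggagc
Mt2: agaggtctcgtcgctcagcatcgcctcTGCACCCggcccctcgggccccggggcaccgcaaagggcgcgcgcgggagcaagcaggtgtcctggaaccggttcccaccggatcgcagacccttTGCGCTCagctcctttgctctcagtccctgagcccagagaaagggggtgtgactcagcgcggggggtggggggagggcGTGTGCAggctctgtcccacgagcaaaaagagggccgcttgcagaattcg
The cores searched were TGCACNC and TGCGCNC, 7 bases each and on both strands. Bases outside these windows were not searched, so the matches are not a count over the whole promoter. The Mt1 window held 1 match, 23 to 17 bases before the start. The Mt2 window held 3, of which the one 50 to 44 bases before the start lies on the minus strand. Of 32851 RefSeq promoter windows of this length, 7032 (21.4%) held at least 1 match.

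Mtf1 (chromosome 4, 124802104 to 124849800, plus strand) was lower in KO at rest. It stood at 31.1, 32.4, 35.0 and 37.3 CPM in day 0 WT and at 24.6, 24.9, 25.5, 27.1 and 27.9 CPM in day 0 KO. On day 7 it had a lowest value of 25.7, a median of 29.7 and a highest of 36.2 CPM in WT, and 32.6, 38.1 and 48.4 CPM in KO. The groups did not overlap on day 0, where 1.98% of all genes tested had all KO libraries below WT, and overlapped on day 7. The day 0 difference of Mtf1 was not called. Its interaction was 0.73 (SE 0.14, adjusted p = 0.119), with a difference of -0.38 on day 0 and 0.35 on day 7.

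Mt1 and Mt2 had the reverse order at rest. Mt1 stood at 33.1, 40.3, 43.6 and 69.1 CPM in day 0 WT and at 110, 130, 139, 139 and 147 CPM in day 0 KO. In day 7 libraries it had 63.6, 92.9 and 250 CPM as lowest, median and highest value in WT, and 85.9, 116 and 461 CPM in KO. Every KO library was above every WT library on day 0 (1.35% of all genes tested), and the day 7 groups overlapped. The day 0 difference was not called for Mt1, nor for Mt2. The interaction of Mt1 was -1.09 (SE 0.56, adjusted p = 0.399). The highest KO value, 461 CPM, was that of the library labelled d7_KO_420. Without it the interaction was -1.66 and passed edgeR's test (adjusted p = 0.0493). No other fit that left out 1 library called Mt1, and without d7_WT_393 its interaction was -0.83. Under the other alternatives it ran from -1.57 to -0.58. Mt2 stood at 5.01 to 12.9 CPM in day 0 WT and 17.4 to 27.01 CPM in day 0 KO, again with no overlap, and its day 7 medians were 56.8 CPM in WT and 43.4 CPM in KO. Its interaction was -1.57 (SE 0.74, adjusted p = 0.357). Without the library labelled d7_KO_420 it was -2.33 and passed edgeR's test (adjusted p = 0.0447). No other fit that left out 1 library called Mt2, and without d7_WT_393 its interaction was -1.20. Under the other alternatives it ran from -2.22 to -0.96.

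Mt4, the metallothionein gene best known from stratified epithelia, was close to the floor. In the day 0 WT libraries it had 0 to 1 counts, 3 in all, and in the KO libraries 8 to 30 counts, 80 in all. With library size taken into account the KO to WT ratio of counts was 42.8 (95% exact interval 14.1 to 212, for counting error only). It was at 0.0643 to 0.33 CPM in day 7 WT and 0.359 to 0.744 CPM in day 7 KO, and so above WT without overlap on both days. Its day 0 difference was called (adjusted p = 0.00206), and its interaction was not (adjusted p = 0.128). The fitted fold of Mt4 depends on the prior count and is not given. Over the 18 genes of metallothioneins and zinc handling the median interaction was 0.03, or -0.11 without the library labelled d7_KO_420. At an unadjusted p under 0.05, 1 was positive and 3 negative, against 7.55% and 5.96% of all genes. Among the 3 was Slc39a8, a zinc and manganese importer gene, at -0.43 (SE 0.18).

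**Figure D4:**
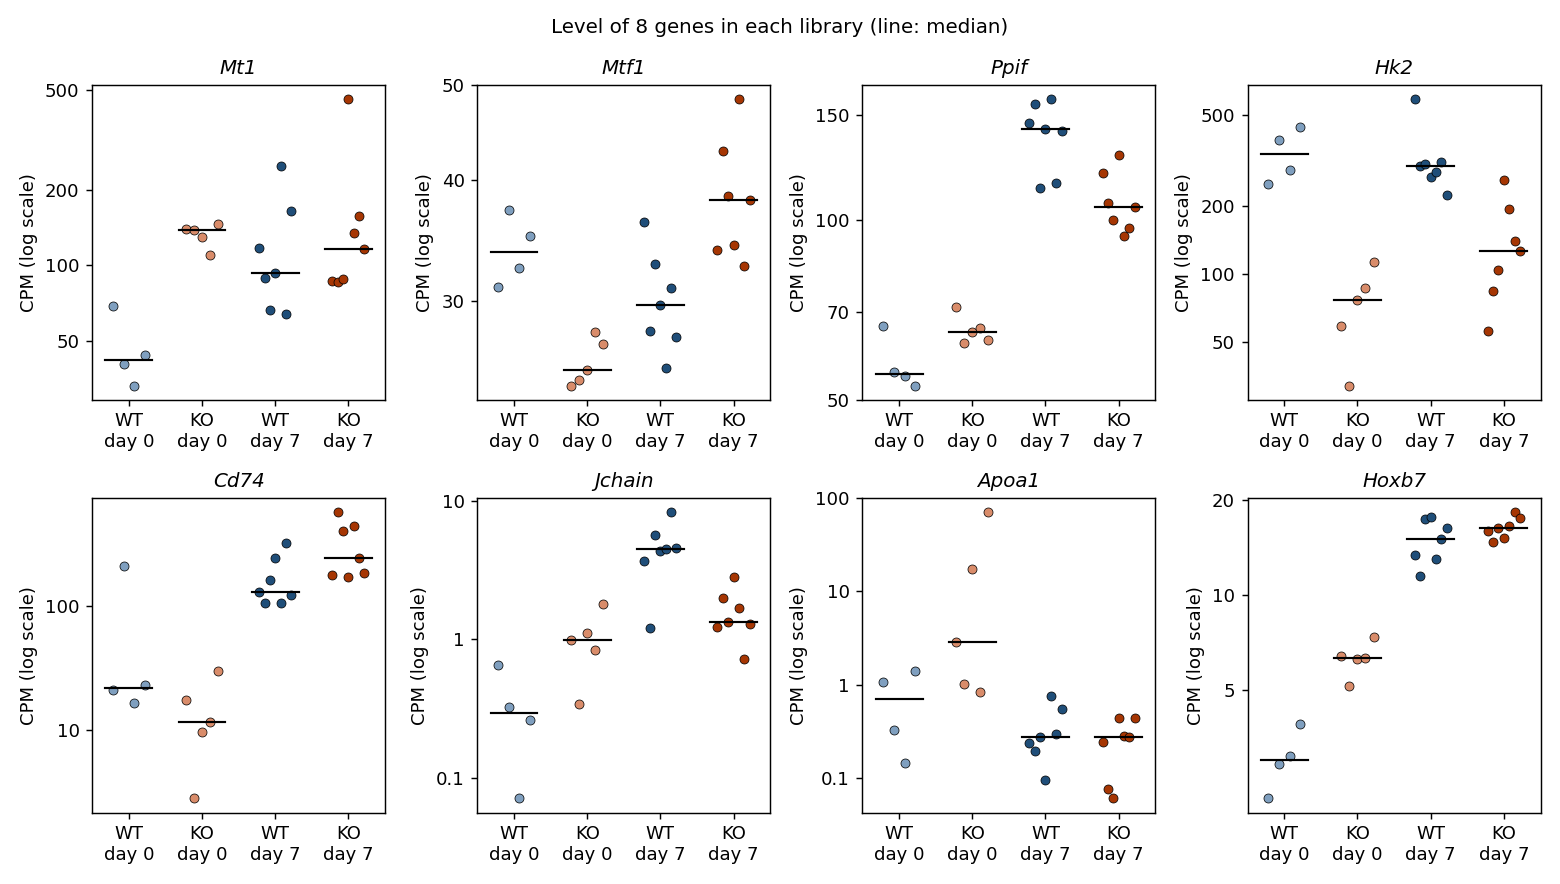
CPM of Mt1, Mtf1, Ppif, Hk2, Cd74, Jchain, Apoa1 and Hoxb7 in each library of the 4 groups (log axis), with a line at each group's median. For Mt1, Mtf1, Hk2 and Hoxb7 the day 0 groups do not overlap, while all 8 genes overlap between genotypes on day 7.

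The genes of mitochondria leaned to negative interactions. Ppif (chromosome 14, 25694154 to 25700468, plus strand), which encodes cyclophilin D, stood at 52.8, 54.9, 55.7 and 66.4 CPM in day 0 WT and at 62.1, 62.8, 65.0, 65.9 and 71.6 CPM in day 0 KO. In colitis it had a lowest value of 113, a median of 142 and a highest of 159 CPM in WT, and 94.1, 105 and 128 CPM in KO. The groups overlapped on both days, with the KO median above WT on day 0 and below it on day 7. The interaction was -0.56 (SE 0.14, unadjusted p = 0.000596, adjusted p = 0.167), made of 0.19 on day 0 and -0.37 on day 7. From day 0 to day 7 Ppif rose by 1.27 in WT (adjusted p = 1.06e-09) and by 0.71 in KO (adjusted p = 1.99e-06). Without the library labelled d7_KO_420 its interaction was -0.64 and passed the test. Slc25a4, an adenine nucleotide translocator gene, had 9.12 to 15.8 CPM in day 0 WT and 15.2 to 24.1 CPM in day 0 KO, and an interaction of -0.97 (SE 0.27, adjusted p = 0.181). These were the 2 of 10 genes of the permeability transition and its channels with an unadjusted p under 0.05, both negative (5.96% of all genes). The median of the 10 was -0.13, or -0.21 without the library labelled d7_KO_420.

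Nuclear genes for subunits of oxidative phosphorylation differed by little each, and mostly to one side. Of 75 tested, 72 had a negative interaction, against 8850 of all 18830 genes, and the median was -0.32. The KO minus WT difference was above 0 for 64 of the 75 on day 0 and for 1 on day 7, with medians of 0.08 and -0.22. Only 5 had an unadjusted p under 0.05, all negative, a share near the 5.96% of all genes, and 0 were called. Without d0_WT_41, 1 had an unadjusted p under 0.05, and without d7_WT_386 the median was -0.18. The complex I gene Ndufv3 was at 60.8 to 86.1 CPM in day 0 WT and 67.6 to 98.3 CPM in day 0 KO, with an interaction of -0.42 (SE 0.18). The complex III gene Uqcrq had an interaction of -0.55 (SE 0.24), or -0.36 without d7_WT_386, and rose from day 0 to day 7 in both genotypes. Genes of one complex are not independent replicates.

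The 11 tested protein genes of the mitochondrial genome were all negative, 8 of them at an unadjusted p under 0.05 (5.96% of all genes). Their median was -1.67. That value rests on 1 library. Their sum was 307600 CPM in d0_KO_32 and the group's median was 43430 CPM, and without that library the median interaction was -0.44 with 0 genes at an unadjusted p under 0.05. For mt-Nd1, a complex I subunit gene, d0_KO_32 had 29720 CPM, and the other 4 KO libraries had 2007, 2935, 3444 and 3901 CPM. Its day 0 WT libraries lay between 1907 and 3955 CPM, so they covered nearly the same range as those 4. The interaction of mt-Nd1 was -1.96 with d0_KO_32 and -0.54 without it.

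None of Hk1, Hkdc1 and Hk3 passed the interaction test. Hk1, the constitutive form, was at 229 to 248 CPM in day 0 WT and 204 to 236 CPM in day 0 KO, and on day 7 at medians of 254 CPM in WT and 258 CPM in KO. Its interaction was 0.27 (SE 0.16, adjusted p = 0.476), and 0.15 without the library labelled d7_KO_420. Hkdc1, a hexokinase domain gene, was higher in all day 0 KO libraries (41.1 to 72.5 CPM) than in all day 0 WT libraries (22.6 to 39.4 CPM). In day 7 WT it was at 51.8 to 83.4 CPM, and in day 7 KO at 34.7 to 171 CPM, the last in the library labelled d7_KO_420. The interaction of Hkdc1 was -0.73 (SE 0.42, adjusted p = 0.46), and without that library it was -1.17 and passed. Hk3, known from myeloid cells, was at most 0.189 CPM in any day 0 library, near the floor, and at 0.461 to 8.89 CPM on day 7, so no fold is given. Over 31 other glycolysis genes the median interaction was -0.06 (-0.19 without the same library). Among them only Pfkfb2 had an unadjusted p under 0.05, against 13.5% of all genes. Pfkfb2 sets the level of an activator of phosphofructokinase, and its interaction was 0.47 (SE 0.17, adjusted p = 0.249).

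With all 23 libraries, the list with the largest positive median was MHC class II, the molecules that present peptides to helper T cells. All 7 genes tested were positive at an unadjusted p under 0.05, against 7.55% of all genes, with a median of 2.24, and 0 were called. Cd74, the invariant chain, stood at 16.7, 21.1, 23.1 and 210 CPM in day 0 WT and at 2.85, 9.79, 11.6, 17.6 and 30.3 CPM in day 0 KO. On day 7 it had a lowest value of 105, a median of 129 and a highest of 324 CPM in WT, and 170, 244 and 571 CPM in KO. The groups overlapped on both days, and 1 WT library, d0_WT_41 with 210 CPM, lay far above the other 8 of day 0. The interaction of Cd74 was 3.10 (SE 0.82, adjusted p = 0.172), and 1.35 without d0_WT_41. Ciita, the master activator of these genes, was at 12.9 CPM in the same library and at 1.57 to 3.05 CPM in the other day 0 WT libraries, and its interaction was 2.87 (SE 0.75), or 1.67 without it. Over the list, leaving out d0_WT_41 brought the median to 0.74 and the number of genes with an unadjusted p under 0.05 from 7 to 2. The B and plasma cell markers, at 1.03, then had a larger median. From day 0 to day 7 Cd74 rose in KO by 4.43 (adjusted p = 6.58e-06). In WT its change was 1.33 (adjusted p = 0.0643), and without d0_WT_41 it was 3.09 and passed (adjusted p = 7.65e-05). Macrophage and monocyte markers, of cells that also carry MHC class II, had 13 of 14 genes positive with a median of 0.99. Their summed level was 47.2 to 61.9 CPM in day 0 WT, 40.5 to 55.4 CPM in day 0 KO, 115 to 429 CPM in day 7 WT and 117 to 660 CPM in day 7 KO. Their part in the MHC class II genes was not tested.

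Genes induced by interferon leaned the same way. Of 26 tested, 25 were positive, with a median of 0.92. An unadjusted p under 0.05 was found for 13, all of these positive, against 7.55% of all genes. On day 7 all 26 had a KO minus WT difference above 0, with a median of 0.85, against a median of 0.00 over all genes. Gbp2, a guanylate-binding protein of cell-autonomous defence, had 11.6, 35.7 and 84.1 CPM as lowest, median and highest value in day 7 WT, and 32.5, 90.02 and 418 CPM in day 7 KO. In day 0 WT it stood at 7.14, 10.2, 13.8 and 84.6 CPM, the last again in d0_WT_41, and in day 0 KO at 2.96, 4.36, 5.48, 7.28 and 15.1 CPM. Its interaction was 3.63 (SE 0.99, adjusted p = 0.172), and 2.13 without d0_WT_41. Iigp1, an immunity-related GTPase gene, had an interaction of 4.58 (SE 1.19) and 2.25 without that library. Without it the list's median was 0.60, and 7 genes had an unadjusted p under 0.05. On day 3 the list's median KO minus WT difference was 0.31, and 0.24 without the library labelled d3_KO_345, whose Hk2 goes against its label. The macrophage and monocyte markers given above also had a positive median, with 1 positive and 1 negative gene at an unadjusted p under 0.05. T cell markers summed to 47.8 to 231 CPM in day 7 WT and 77.5 to 209 CPM in day 7 KO. The part of these cells in the interferon genes was not tested. In such bulk libraries more cells of a type and more RNA per cell cannot be told apart.

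**Figure D5:**
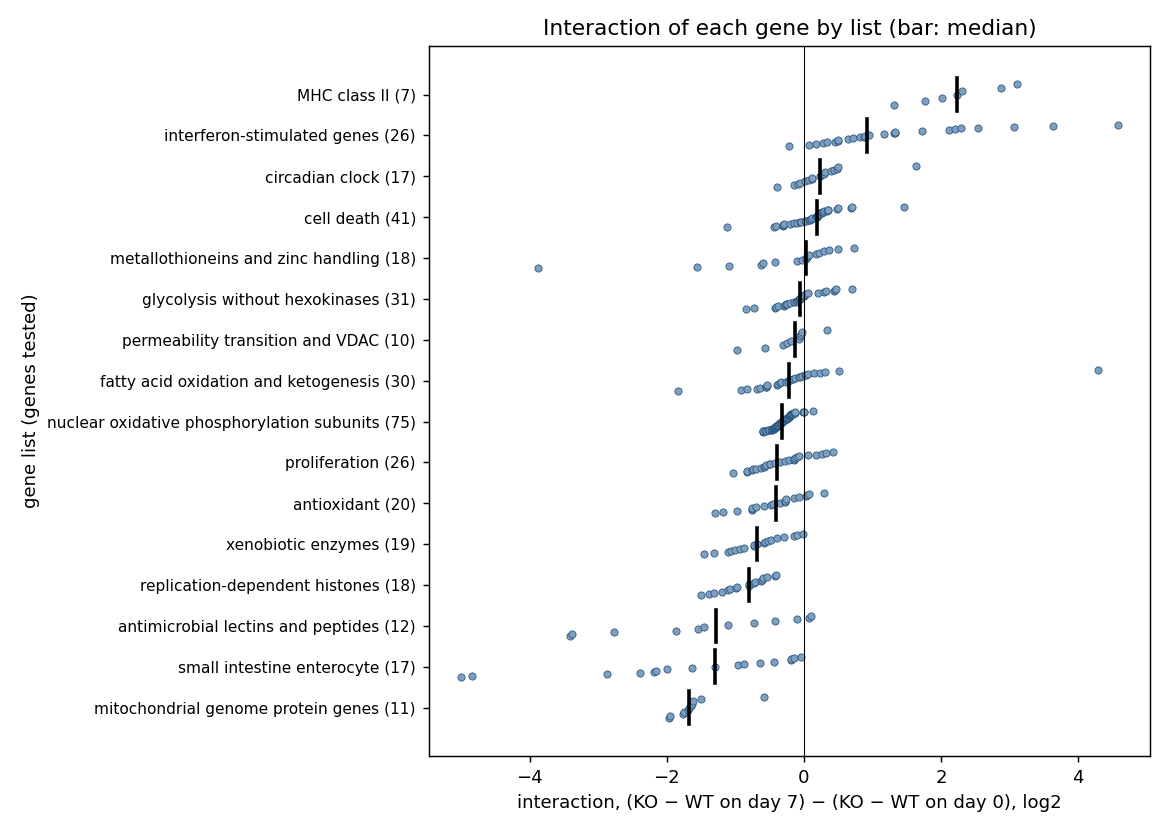
Interaction (x axis, log2) of each tested gene in 16 of the lists, 1 point per gene, with a bar at each list's median. MHC class II (median 2.24) and the interferon-stimulated genes (0.92) lie right of 0, and the mitochondrial genome (-1.67), small intestine (-1.30) and antimicrobial (-1.28) lists lie left of it.

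Markers of small intestine enterocytes lay on the negative side. All 17 tested were negative, where 8850 of all 18830 genes were, and the median was -1.30. At an unadjusted p under 0.05 there were 8, against 5.96% of all genes. The median KO minus WT difference was 1.06 on day 0 and -0.10 on day 7. Apoa1, a lipoprotein gene of the small intestine, stood at 0.143, 0.324, 1.07 and 1.40 CPM in day 0 WT and at 0.835, 1.02, 2.90, 17.6 and 71.5 CPM in day 0 KO. All 14 day 7 libraries had 0.0599 to 0.749 CPM. The groups overlapped on both days, and d0_KO_60 and d0_KO_53 held the highest values. Its interaction was -4.99 (SE 1.28, adjusted p = 0.167), -3.30 without d0_KO_60, and -0.81 with a small intestine marker score, which holds Apoa1 itself, as a covariate. Sis, the sucrase-isomaltase gene, was highest in the same libraries, at 29.2 and 19.5 CPM, and had an interaction of -2.39 (SE 0.75). Slc2a5, the fructose transporter GLUT5, was spread more evenly. It stood at 0.931, 1.11, 1.55 and 1.81 CPM in day 0 WT and at 2.18, 2.47, 2.85, 3.34 and 3.48 CPM in day 0 KO, with no overlap, and its interaction was -1.30 (SE 0.29, adjusted p = 0.144). Without d0_KO_60 the list's median was -1.06. Of 12 markers of position in the colon 1 was higher in KO on each day, with median KO minus WT differences of -0.25 on day 0 and -0.35 on day 7 and a median interaction of -0.04. The summed level of the small intestine markers was 438 to 805 CPM in day 0 WT and 579 to 1098 CPM in day 0 KO. With the score of these markers as a covariate, edgeR's test called 0 genes for the interaction, and 2446 had an unadjusted p under 0.05.

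The detoxifying enzymes of the epithelium had a like order. All 19 xenobiotic enzymes tested were negative, 8 at an unadjusted p under 0.05 (5.96% of all genes), with a median of -0.69. Cyp2c65, a cytochrome P450 gene, stood at 69.3, 96.7, 108 and 123 CPM in day 0 WT and at 144, 159, 163, 168 and 172 CPM in day 0 KO. Among day 7 libraries it was at 239 to 374 CPM in WT and 266 to 406 CPM in KO. The day 0 groups did not overlap and the day 7 groups did. Its interaction was -0.73 (SE 0.20, adjusted p = 0.172). Ugt2b5, a glucuronosyltransferase gene, had -1.06 (SE 0.29), and Aldh1a1, a retinaldehyde dehydrogenase gene, -0.94 (SE 0.27), each with day 0 groups apart. The carboxylesterase gene Ces1g stood at 25.5, 27.4, 29.7 and 35.0 CPM in day 0 WT and at 66.5, 67.2, 72.5, 83.0 and 107 CPM in day 0 KO. By day 7 it was at 43.7 to 178 CPM in WT and 28.4 to 118 CPM in KO. Its interaction was -1.53 (SE 0.45, adjusted p = 0.188), and over 14 carboxylesterases 2 had an unadjusted p under 0.05, a share near the 13.5% of all genes tested. The list of 30 genes of fatty acid oxidation and ketogenesis had 5 negative and 2 positive genes at an unadjusted p under 0.05, against 5.96% and 7.55% of all genes.

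Antimicrobial lectins and peptides had 5 of 12 genes negative at an unadjusted p under 0.05, against 5.96% of all genes. Their median was -1.28, or -0.73 without d0_KO_54. Itln1, an intelectin gene of Paneth and goblet cells, was at 0.286 to 1.37 CPM in day 0 WT and at 0.342, 0.943, 2.08, 6.29 and 32.2 CPM in day 0 KO, the last in d0_KO_54. Its interaction was -3.42 (SE 1.01, adjusted p = 0.188), and -1.66 without that library. Reg3a, a C-type lectin gene, was at most 1.65 CPM on day 0, and its highest day 7 KO value, 11.3 CPM, was that of the library labelled d7_KO_420. Its interaction was -3.39 (SE 1.29, adjusted p = 0.268). Acute inflammation genes showed no common side, with 1 positive and 1 negative of 28 at an unadjusted p under 0.05 and a median of 0.13, or -0.29 without the library labelled d7_KO_420. The positive one was Ido1, the tryptophan-degrading enzyme gene, with 7.18, 23.4 and 81.7 CPM as lowest, median and highest value in day 7 WT and 30.2, 70.8 and 315 CPM in day 7 KO. Its interaction was 3.12 (SE 0.97, adjusted p = 0.199), and 2.10 without d0_WT_41. Saa2, a serum amyloid gene, was the negative one at -3.29 (SE 0.98), with all libraries between 0.0928 and 3.88 CPM. The highest was d0_KO_60, and without it the interaction of Saa2 was -1.91.

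The 3 genes with the smallest p among B and plasma cell markers had negative interactions that did not pass the test. Jchain, which joins the units of secreted IgA and IgM, stood at 0.0716, 0.264, 0.324 and 0.654 CPM in day 0 WT and at 0.342, 0.835, 0.987, 1.12 and 1.80 CPM in day 0 KO. In colitis it had a lowest value of 1.22, a median of 4.46 and a highest of 8.27 CPM in WT, and 0.72, 1.34 and 2.82 CPM in KO. The groups overlapped on both days, with medians in opposite order. The interaction of Jchain was -3.18 (SE 0.66, adjusted p = 0.128). Igha, the constant region of IgA, had -2.59 (SE 0.70) and Igkc, the kappa light chain, -1.96 (SE 0.64). Other B cell genes did not share the sign, since 7 of the 11 tested were positive, and the list's median was 0.71. That median was 0.42 without d0_KO_32, 0.15 without d0_WT_31, and 0.14 without both of these female libraries. The summed level of the list was 5.50 to 16.0 CPM in day 0 WT, 2.72 to 13.9 CPM in day 0 KO, 19.4 to 97.0 CPM in day 7 WT and 19.2 to 45.7 CPM in day 7 KO. Among macrophage markers Ms4a7 alone was negative, at -1.44 (SE 0.39, adjusted p = 0.172). Neutrophil markers had 7 of 14 genes on each side and 0 at an unadjusted p under 0.05. Their median interaction was 0.21, and -1.76 without the library labelled d7_KO_420.

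Of 26 proliferation genes 21 had a negative and 5 a positive interaction. At the level of single genes 7 had an unadjusted p under 0.05, all negative (5.96% of all genes), and the median was -0.39. Plk1, a mitotic kinase gene, stood at 62.2, 65.3, 65.5 and 68.0 CPM in day 0 WT and at 69.2, 75.7, 82.8, 85.0 and 87.9 CPM in day 0 KO. Among day 7 libraries it had 51.1, 65.2 and 84.0 CPM as lowest, median and highest value in WT and 43.9, 57.1 and 67.1 CPM in KO. The KO libraries were above WT without overlap on day 0, and the groups overlapped on day 7. Its interaction was -0.58 (SE 0.16, adjusted p = 0.182). Ccnb2, a cyclin of mitosis, had -1.03 (SE 0.30, adjusted p = 0.182), with 25.1 to 42.4 CPM in day 7 WT and 11.0 to 27.6 CPM in day 7 KO. Stem cell and Wnt genes, 10 of 12 on the positive side with a median of 0.25 (0.12 without d7_KO_421), held 0 at an unadjusted p under 0.05. Of 18 replication-dependent histone genes, whose messages end without a poly(A) tail, all were negative, with a median of -0.80. Of these, 8 had an unadjusted p under 0.05, against 5.96% of all genes. Their level differed between the library series more than between genotypes: Hist1h1b was at 77.0 to 176 CPM on day 0 and at 0.045 to 0.72 CPM on day 7. Histone genes made up 0.266% to 0.413% of counts on day 0 and 0.012% to 0.0262% on day 7, and the part of this in their interaction was not tested.

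Cell death genes had interactions on both sides of 0. Of 41 tested, 7 were positive and 2 negative at an unadjusted p under 0.05, against 7.55% and 5.96% of all genes, and the median was 0.19. Without the library labelled d7_KO_420 the median was 0.04, with 3 genes on each side at that threshold. Casp8, the initiator caspase of the death receptors, had an interaction of 0.33 (SE 0.14). Zbp1, a nucleic acid sensor of necroptosis that is itself induced by interferon, had 1.46 (SE 0.52), and 0.76 without d0_WT_41. Bax, a pore-forming gene of the mitochondrial path of apoptosis, was on the negative side at -0.41 (SE 0.16, adjusted p = 0.284). Without d0_WT_41 the list had 1 positive and 2 negative genes at an unadjusted p under 0.05.

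Antioxidant genes were negative for 16 of 20, with a median of -0.41 (all genes 0.03). Of these, 6 had an unadjusted p under 0.05, against 5.96% of all genes. Prdx1, a peroxiredoxin gene, stood at 221 to 326 CPM in day 0 WT and 259 to 355.8 CPM in day 0 KO, and at 424 to 821 CPM in day 7 WT and 369 to 461 CPM in day 7 KO. Its interaction was -0.58 (SE 0.21, adjusted p = 0.239). Gsta4, a glutathione transferase gene for lipid peroxidation products, had -0.97 (SE 0.30, adjusted p = 0.198). The list of 19 integrated stress response genes had 12 negative and 7 positive interactions. Its median was -0.16, or 0.05 without d7_WT_386, and 1 gene, a negative one, had an unadjusted p under 0.05 (5.96% of all genes). Nupr1, the lowest gene of that list, had day 7 medians of 272 CPM in WT and 138 CPM in KO. Its interaction was -1.29 (SE 0.42, adjusted p = 0.208). Without the library labelled d7_KO_420 it was -1.53 and passed edgeR's test (adjusted p = 0.0493). No other fit that left out 1 library called Nupr1. Under the other alternatives its interaction ran from -1.66 to -0.77.

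Tdpx-ps1, a peroxiredoxin pseudogene, was the only gene called as higher in KO on day 7. It was also the only call on day 3, of 15461 genes (0.00647%). With each of the 15 day 3 libraries left out in turn, 14 fits had 0 calls, and only that without the library labelled d3_KO_345 kept 1, of 15366 genes (0.00651%). By day 7 it had 0, 0.0211 and 0.28 CPM as lowest, median and highest value in WT and 1.42, 1.77 and 2.18 CPM in KO, with no overlap. On day 0 it stood at 0, 0.0462, 0.0595 and 0.859 CPM in WT and at 0, 0, 0.0617, 1.21 and 1.65 CPM in KO. So 1 of 4 WT and 2 of 5 KO libraries had it near the day 7 KO level. Its parent genes could share reads with it, and its values near 0 lie at the floor. Its interaction had an unadjusted p of 0.0354 and an adjusted p of 0.335.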

How the data were processed

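RNA-seq libraries of isolated intestinal epithelial cells were sequenced as paired reads of 50 bases, per the labels' protocols. Per the submitters' processing notes, reads were trimmed with Trim Galore and aligned with STAR to GRCm38. The deposited values are counts per gene, 2 lane files per library, made with featureCounts 1.6.2 per the file headers (1.5.2 per the submitters' processing notes) without use of strand. Reads from overlapping or antisense genes therefore cannot be told apart.

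Both lanes of each library were summed, and 1 row set of 46078 gene identifiers was used throughout. Groups came from the titles. The main test was edgeR 4.0.16 (R 4.3.3) with TMM scaling, filterByExpr by group and a quasi-likelihood fit of 4 group means over 23 libraries, from which the interaction and its parts were taken as contrasts. The standard error is the absolute log2 value divided by the square root of F. Adjusted p-values are Benjamini-Hochberg over the 18830 genes tested, and "called" means under 0.05. CPM are TMM-scaled. Day 3 was fitted alone. The fit was also run on simulated counts, and the outcome is not reported here.

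Named genes were, in each direction, the 12 protein-coding genes of smallest interaction p whose log2 CPM averaged 2 or more, a set of genes of earlier interest (among them Hk1, Hk2, Hk3, Hkdc1, Ppif, Tdpx-ps1, Ces1g, Mt1, Mt2, Mt4 and Per2), and up to 4 genes of smallest p in each of 22 pathway and 15 marker lists. Some genes the rule names are not reported here. The members and lists were chosen with earlier results of these data known, so no list is independent evidence. Alternatives were DESeq2 1.42.0, limma 3.58.1 with voom and sample quality weights, other scaling, filters, dispersions and lanes, all 38 libraries, marker score and sex covariates, and each library left out. The fit without both female day 0 libraries was added after the data were seen. Promoter windows came from RefSeq (GRCm38.p6), with 1 window for each gene shown. Intervals on counts cover counting error only.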

Additional observations from a re-analysis of the deposited data

Results flagged for a closer look

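Per2 was the gene whose genotype difference was tested to differ between the days, with an interaction of 1.64 on the log2 scale. Within groups, 22 of 324 group values (6.79%) had a highest or lowest library farther from its neighbour than Dixon's 95% limit allows, and chance gives about 1 in 20. The library labelled d7_KO_420 held 5 of them. It was the highest of day 7 KO for Lrrc40 (26 CPM), Mt1 (461 CPM), Arntl (68.6 CPM) and Reg3a (11.3 CPM), and the lowest for Clock (75.3 CPM). The library d0_KO_32 held 4, the highest of day 0 KO for mt-Nd1 (29700 CPM) and mt-Nd6 (1100 CPM) and the lowest for Bhlhe40 (79.9 CPM) and Nupr1 (70.3 CPM).

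The other day 0 values were Car8 at 18.3 CPM and Chrnb4 at 2.43 CPM, both lowest of WT in d0_WT_43, Saa2 at 0.119 CPM, lowest of WT in d0_WT_31, and Cd74 at 210 CPM, highest of WT in d0_WT_41. Among day 0 KO libraries, Mt4 was highest at 2.84 CPM and Vil1 at 855 CPM, both in d0_KO_60.

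The other day 7 values were Per2 at 45.5 CPM in d7_KO_422, and Gbp2 at 418 CPM and Hist1h4d at 0.487 CPM in d7_KO_421, each the highest of KO. In WT, Hk2 was highest at 589 CPM in d7_WT_356 and Itln1 at 1.4 CPM in d7_WT_370. Jchain was lowest at 1.22 CPM in d7_WT_361, and Cdh1 at 933 CPM in d7_WT_386.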

How the results depend on the processing

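No direction of the 79 genes examined reversed under any of 13 alternatives. The interaction had 179 calls by DESeq2, 1666 by limma's voom with quality weights, 4 with all 38 libraries, 2 with an immune score and 0 with a small intestine score as covariate, 6 without both female day 0 libraries, and 0 to 279 over 23 fits that each left out 1 library. The day 0 difference had 46 calls by DESeq2, 760 by voom, 5 with lane 1 alone, 4 with all 38 libraries, 2 with the small intestine score, and 2 to 10 with 1 library left out. The day 7 difference had 261 calls by DESeq2, 1330 by voom, 38 with all 38 libraries, 7 with the immune score, 4 with robust dispersions, 1 with size factors or the small intestine score, 0 with a mean CPM of at least 1 or without mitochondrial-genome and immunoglobulin genes, and 0 to 907 with 1 library left out. The change from day 0 to day 7 had 4838 calls in WT and 2862 in KO with the immune score, and 7046 in KO with a mean CPM of at least 1; with 1 library left out it had 10265 to 11998 and 9553 to 11148. Day 3 had 0 calls with a mean CPM of at least 1 and 0 to 1 with 1 library left out. The causes of these changes were not tested. By design, the fit of all 38 libraries shares 1 estimate of spread with day 3, and a left-out library means fewer samples. Of the 79 genes, 42 that were not called became called without the library labelled d7_KO_420. No paired analysis was possible because no replicate number occurs in more than 1 group. Depth limits Hk3, with 0 to 7 counts in each day 0 library. It also limits Mt4, Tdpx-ps1, Saa2, Reg3a, Jchain, Apoa1, Itln1, Iigp1 and Igkc. Each of these had 3 counts or fewer in at least 1 day 0 library.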

Other observations

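Some genes called for the interaction without the library labelled d7_KO_420 fall outside the rule for named genes and were chosen after their values were seen. In each, that library lay apart from the other 6 of day 7 KO. Mavs, the adaptor of cytosolic RNA sensing on mitochondria, stood at 40.7 to 50.2 CPM in day 0 WT and 31.7 to 39.1 CPM in day 0 KO. In day 7 WT it was at 29.5 to 52.7 CPM, in 6 day 7 KO libraries at 56.8 to 66.0 CPM, and in the library labelled d7_KO_420 at 22.9 CPM. Slc5a3, the myo-inositol cotransporter of osmotic balance, stood at 130 to 174 CPM in day 0 WT and 85.8 to 111 CPM in day 0 KO. Its day 7 WT libraries had 27.3 to 48.8 CPM, the 6 KO libraries 42.1 to 81.5 CPM, and the library labelled d7_KO_420 19.5 CPM. Both genes thus stood lower in every KO library than in every WT library at rest. Their 6 day 7 KO libraries stood above WT for Mavs and overlapped with WT for Slc5a3.

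Nudt16, a nucleotide and RNA cap hydrolase, took the reverse order, with 12.8 to 16.8 CPM in day 0 WT and 19.1 to 23.2 CPM in day 0 KO. In day 7 WT it was at 21.3 to 37.7 CPM, in the 6 KO libraries at 16.1 to 20.4 CPM, and in the library labelled d7_KO_420 at 37.6 CPM. Top1, DNA topoisomerase I, was at 91.6 to 140 CPM in day 7 WT, at 148 to 174 CPM in the 6 KO libraries and at 101 CPM in that library. For Mavs, Nudt16 and Top1 the 6 KO libraries did not overlap with WT on day 7, while the library labelled d7_KO_420 lay within or beyond the WT range on the WT side. All these genes were chosen from the fit that left that library out, so this order follows in part from the choice. The share of all genes with the 6 KO libraries apart from WT is not given here.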
